A study of Mus musculus with 16 samples.

Results

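Genes for proteins that neutrophils store in granules, hold in the cytosol or carry at the surface were followed in mouse colon with and without colitis. The members were chosen by name: S100a8, S100a9, Ltf, Mmp8, Mmp9, Prtn3, Retnlg, Ly6g and Cd177. All 9 were found among the 5171 distinct genes of the 4 deposited tables. Every mouse was C57BL/6, and the study's methods describe males. Mice of wild type genotype (WT) were set against knockout mice (KO). The study gives the KO as having exons of both Smarcad1 alleles flanked by loxP sites, with a Cre transgene under the villin promoter (Vil-Cre). Smarcad1 encodes a chromatin remodelling ATPase. The villin promoter is active in the intestinal epithelium, so the KO is not directed at neutrophils or other cells of the gut wall, and 1 targeted mouse line (CE6) was used. All groups, controls included, had been given enriched microbiota, from 2 weeks before colitis was induced, by bedding transfer and shared ventilation with C57BL/6 donor females. The labels do not say whether WT mice carried loxP sites or Cre. In the colitis groups 1% dextran sulphate sodium (DSS), a polymer that injures the colon lining, was given in the drinking water for 15 days, and the labels give no age. Libraries were made from whole colon tissue, 3 from each genotype without DSS (control) and 5 from each genotype with it (colitis).

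Neutrophils build their granules in sequence while they mature in the bone marrow. Azurophil granules hold serine proteases such as proteinase 3, specific granules hold lactoferrin and collagenase, and gelatinase granules hold gelatinase, while the S100 pair calprotectin fills the cytosol. Once released they bind metals, cut matrix or kill microbes, and calprotectin in stool is a common clinical measure of gut inflammation. In the bone marrow many of the transcripts are made before the cell leaves, under transcription factors that include the C/EBP family and PU.1.

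To show the DNA in front of genes that moved together and of genes that did not, the 250 bases upstream of the RefSeq start (GRCm38.p6) are given for 5 of the 9 genes. S100a8, S100a9 and Mmp8 are shown because they had close differences between genotypes in colitis, Ltf because its means hardly differed between genotypes, and Ly6g because it was abundant without colitis. The windows are chr3:90668821-90669070 on the plus strand for S100a8, chr3:90695722-90695971 on the minus strand for S100a9, chr9:7558179-7558428 on the plus strand for Mmp8, chr9:111019042-111019291 on the plus strand for Ltf and chr15:75155011-75155260 on the plus strand for the upstream of the 2 Ly6g entries. Each runs 5′ to 3′ and ends at the base before the start. Capitals mark matches on either strand to TTNNGNAA, the spacing bound by C/EBP dimers, and to GAGGAAGT, a PU.1 motif.
S100a8: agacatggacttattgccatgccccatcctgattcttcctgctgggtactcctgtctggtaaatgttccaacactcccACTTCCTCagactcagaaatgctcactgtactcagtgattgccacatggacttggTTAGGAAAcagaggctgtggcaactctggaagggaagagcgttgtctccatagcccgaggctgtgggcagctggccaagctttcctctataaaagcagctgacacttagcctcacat
S100a9: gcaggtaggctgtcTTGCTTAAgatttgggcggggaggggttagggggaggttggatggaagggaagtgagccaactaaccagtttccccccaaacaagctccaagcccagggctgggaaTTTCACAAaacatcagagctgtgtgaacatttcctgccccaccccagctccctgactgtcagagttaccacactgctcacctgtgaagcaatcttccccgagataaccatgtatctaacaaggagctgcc
Mmp8: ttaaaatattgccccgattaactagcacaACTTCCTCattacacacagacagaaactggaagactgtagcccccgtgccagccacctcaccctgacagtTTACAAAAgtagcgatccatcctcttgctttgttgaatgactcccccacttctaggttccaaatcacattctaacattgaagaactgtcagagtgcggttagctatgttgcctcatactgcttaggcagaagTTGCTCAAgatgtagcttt
Ltf: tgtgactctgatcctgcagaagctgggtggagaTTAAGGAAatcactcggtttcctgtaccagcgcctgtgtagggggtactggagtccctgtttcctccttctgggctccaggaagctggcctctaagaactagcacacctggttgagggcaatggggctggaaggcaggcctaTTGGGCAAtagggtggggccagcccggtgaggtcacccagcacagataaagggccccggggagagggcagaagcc
Ly6g: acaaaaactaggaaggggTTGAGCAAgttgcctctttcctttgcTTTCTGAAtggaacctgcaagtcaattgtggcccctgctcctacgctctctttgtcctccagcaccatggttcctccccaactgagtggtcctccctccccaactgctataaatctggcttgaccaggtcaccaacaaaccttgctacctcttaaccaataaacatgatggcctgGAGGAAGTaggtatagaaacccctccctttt

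The TTNNGNAA letters were present in front of 7 of the 8 members with a promoter entry, and in 36.8% of all 32851 promoter windows. The first matching base lay at −117 in S100a8, −236 and −130 in S100a9 and −151 and −19 in Mmp8, counted back from −1 at the base before the start. Prtn3 was the member without this match. The rarer GAGGAAGT letters were found for S100a8, Mmp8, Prtn3 and Ly6g, 4 of the 8, against 2.44% of all windows. S100a9, which had values close to those of S100a8, had no such match, and no match of one motif overlapped the other in these windows. These matches describe letters and not bound sites. Mmp9 had no entry.

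Depth and tissue were checked before the members. The geometric mean library size was between 8.005 M and 10.1 M reads in the 4 groups. A mean of 3 reads per library, the level under which a mean was treated as low, was −1.75 log2 RPM (RPM being reads scaled to a common library total) in WT control, −1.70 in KO control, −1.42 in WT colitis and −1.72 in KO colitis. The deposited tables give the authors' mean of log2 RPM in each group, and values of single libraries were not used here. The values below therefore have no SD, a difference of means is a description, and a gene is said to rise only where the authors list it in the table of that comparison. Smarcad1, the targeted gene, had control means of 5.77 log2 RPM (WT) and 4.59 (KO), and colitis means of 5.68 and 4.55. The colon epithelium genes in the tables (3 of 11: Car1, Aqp8 and Slc26a3) and the muscle genes (Acta2 and Myh11, 2 of 4) were all above 9 log2 RPM in every group. The median change with colitis over all 5171 genes was 0.13 in WT and 0.19 in KO on the log2 scale. With every group centred on the median of its own means over all listed genes, the median change of the 9 genes was 3.33 in WT and 2.47 in KO.

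In colitis the means of the 9 genes were higher than in control in WT by a log2 change of at least 1 without exception, 9 of 9 against 18.4% of all listed genes. In KO it was 7 of 9 against 16.0%, the others being Mmp9 and Prtn3. WT had a median change of 3.44 and KO one of 2.54. Between genotypes, S100a8, S100a9, Mmp8 and Prtn3 were lower in KO colitis than in WT colitis by at least 1 (4 of 9 against 2.90% of all listed genes). Retnlg and Mmp9 were lower by less, Ltf was almost equal, and Ly6g and Cd177 were somewhat higher in KO. Prtn3 and Mmp9 are listed in WT colitis alone, so a high WT colitis mean helped to bring them in. Ltf is listed in KO colitis alone, so a high KO colitis mean helped to bring it in. In colitis Prtn3 stood at 6.36 reads per library in WT and 3.06 in KO, close to the low level of 3. The median difference was −0.93, beside −0.01 for all listed genes. The authors list 8 of the 9 genes in WT colitis (63.1% of all listed genes) and 7 in KO colitis, a share near the background of 78.4%. They list 0 of the 9 in KO against WT, where the tables hold 0.890% of all listed genes in control and 1.08% in colitis, so no difference between genotypes for these 9 genes passed their DESeq2 test, and unadjusted p-values were not analysed here. These comparisons share groups, since the WT colitis mean enters both the WT change and the difference between genotypes.

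**Figure D1:**
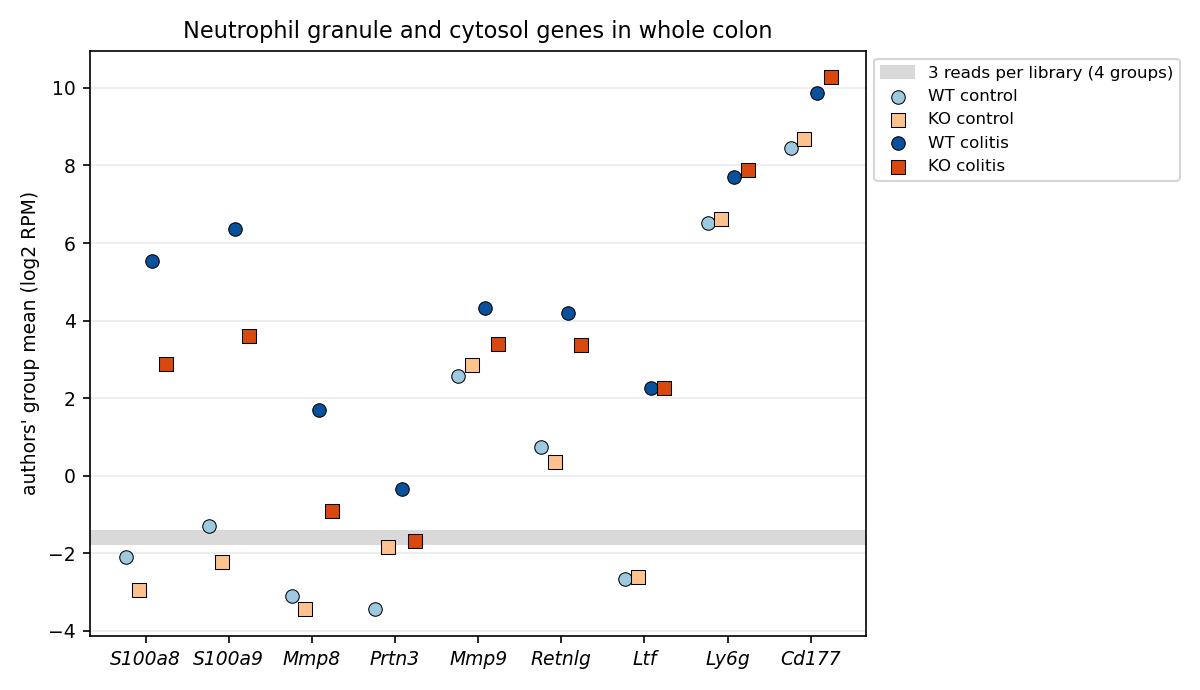
Authors' group means in log2 RPM (y axis) of the 9 genes (x axis) in control (pale) and colitis (dark) of WT (circles) and KO (squares), 1 point per group mean with no error bar because values of single libraries were not used; the grey band spans 3 reads per library in the 4 groups. S100a8 and Mmp8 lie below the band in control, and S100a9 lies just above it in WT control and below it in KO control. In colitis S100a8, S100a9 and Mmp8 lie apart by genotype, while Ly6g and Cd177 lie above 6 log2 RPM in every group.

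S100a8 and S100a9 encode the 2 chains of calprotectin, which binds calcium, zinc and manganese. S100a8 maps to chromosome 3 (90668978 to 90670035, plus strand) in GRCm38, and S100a9 from 90692632 to 90695721 on the minus strand, 22597 bases away. S100a8 was at −2.09 log2 RPM in WT control, −2.95 in KO control, 5.54 in WT colitis and 2.88 in KO colitis. Both controls were at or under 3 reads per library. The KO control mean can only come from libraries of 1, 1 and 2 reads, and the WT control mean from libraries of 0, 3 and 5 or of 0, 1 and 15 reads, with a count of 0 entered as 0.9. The colitis means stood at 372 reads per library in WT and 72.7 in KO. S100a8 rose 197-fold in WT (54.3 to 408 with the counting error of the control reads alone) and 57.1-fold in KO (21.1 to 198), and is in both colitis tables.

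S100a9 was at −1.30 log2 RPM in WT control, −2.23 in KO control, 6.36 in WT colitis and 3.60 in KO colitis. This corresponds to 4.12, 2.08, 659 and 119 reads per library. It rose 202-fold in WT, against 14 to 72 reads in the 3 control libraries, and 56.8-fold in KO (18.0 to 126 for the control reads), again in both tables. Both genes thus stood near the level of single reads in untreated colon and far above it in WT colitis. In colitis the KO mean was 6.30-fold lower than the WT mean for S100a8 and 6.80-fold lower for S100a9. Among the 5171 genes these were the 5th and 4th lowest differences, while in control, where the reads were few, the differences were −0.87 and −0.94, and 0.05 and −0.41 with low means raised to 3 reads per library.

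The 2 chains kept a near constant distance from each other. Per kilobase of merged exon, over 694 bases for S100a8 and 522 for S100a9, the S100a9 level exceeded that of S100a8 by 1.20 (log2) in WT control, 1.13 in KO control, 1.24 in WT colitis and 1.13 in KO colitis. By the distance between patterns (the Euclidean distance of the 4 group means after each gene's own average was taken off), the gene nearest to S100a8 was S100a9 at 0.09. Next came Saa3, an acute phase serum amyloid A gene, at 1.03 from S100a8 and 1.10 from S100a9, and Cxcl2, a chemokine that draws neutrophils, at 1.32 and 1.37. The likeness rests on 4 means for each gene. Of the S100 genes near the pair, S100a4 at 62933 bases from S100a8 changed by 1.07 in WT and 1.21 in KO, and S100a7a at 10309 bases by −1.37 and −2.86. Of the receptors for the pair, Cd36 was in the tables (1 of 3, not Tlr4 or Ager), and it fell by 1.06 in WT and 1.04 in KO on the log2 scale, listed in both.

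Mmp8 encodes neutrophil collagenase, a protease of the specific granules that cleaves fibrillar collagen. It maps to chromosome 9 (7558456 to 7568485, plus strand). Its mean was −3.11 log2 RPM in WT control, −3.44 in KO control, 1.71 in WT colitis and −0.90 in KO colitis. In KO control all 3 libraries were at 0 reads, and in WT control the libraries had 0, 0 and 2 reads. WT colitis stood at 26.1 reads per library and KO colitis at 5.29, with no KO colitis library at 0. Mmp8 rose 28.1-fold in WT (13.7 to 409 for the control reads) and is listed in both colitis tables. In KO it was at least 1.75-fold higher in colitis, against a floor of 3 reads per library. The KO colitis mean was 6.08-fold lower than the WT colitis mean, the 8th lowest of all 5171 differences. The matrix metalloproteinase genes next to it on the chromosome were Mmp27, 2911 bases away, with a colitis difference between genotypes of −0.26, and Mmp10, 48216 bases away, with −1.29.

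Prtn3 encodes proteinase 3, a serine protease of the azurophil granules. It maps to chromosome 10 (79874476 to 79883174, plus strand), shares 159 bases with Plppr3 in the GENCODE annotation, and its row in the tables names Plppr3 as the overlapping feature. Its RefSeq start is several kilobases inside the interval given in the tables, and which of the overlapping genes its few reads came from was not tested. The means were −3.44 log2 RPM in WT control, −1.85 in KO control, −0.33 in WT colitis and −1.69 in KO colitis, or 0.932, 2.71, 6.36 and 3.06 reads per library. WT control had 1 read in its 3 libraries, and KO control had 9 to 22. Prtn3 rose 8.61-fold in WT, with a counting interval of the control read from 4.32 to 952. In KO the ratio was 1.12 (0.273 to 2.21), and Prtn3 is not in that table. In control it was the 1 member that differed by at least 1 between genotypes, 1.59 higher in KO (1 of 9 against 1.08% of all listed genes), and 0 of 9 were lower by as much (0.735%). With the low means raised to 3 reads per library, this difference was 0.05. The other azurophil granule genes on the list, Mpo, Elane, Ctsg, Prss57 and Bpi, were in none of the tables (0 of 5), although Elane lies 3073 bases from Prtn3, and their values were not analysed here.

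Mmp9 and Retnlg differed less between genotypes. Mmp9 encodes gelatinase B, stored in gelatinase granules and also made by other cells, and maps to chromosome 2 (164940780 to 164955850, plus strand). It was at 2.56 log2 RPM in WT control, 2.85 in KO control, 4.32 in WT colitis and 3.39 in KO colitis, with 59.6 to 159 reads per library. It rose 3.38-fold in WT and is listed there. The KO ratio was 1.46-fold without listing, and the KO colitis mean was 1.90-fold lower than the WT colitis mean. Retnlg encodes a resistin-like protein found in neutrophils and their precursors and maps to chromosome 16 (48872608 to 48874498, plus strand). It was at 0.74 log2 RPM in WT control, 0.36 in KO control, 4.18 in WT colitis and 3.38 in KO colitis. It rose 10.9-fold in WT and 8.10-fold in KO and is in both tables, with a KO colitis mean 1.75-fold lower. Of its relatives on the same chromosome, Retnlb, made by goblet cells, also had higher means in colitis, and Retnla had lower ones. Retnlb changed by 3.73 in WT and 4.73 in KO. Its difference between genotypes in colitis was −0.83, beside −0.80 for Retnlg. Retnla changed by −2.15 and −1.25, with a difference of 0.80. Both relatives are listed in WT and not in KO.

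Ltf encodes lactoferrin, an iron-binding protein of the specific granules. It maps to chromosome 9 (111019271 to 111042767, plus strand). Its means were −2.67 log2 RPM in WT control, −2.62 in KO control, 2.27 in WT colitis and 2.25 in KO colitis. Either control mean comes from libraries of 1, 1 and 4 or of 1, 2 and 2 reads, and the colitis means were 38.5 and 46.9 reads per library. The ratio was 30.7-fold in WT (11.2 to 89.9 for the control reads) and 29.2-fold in KO (10.7 to 85.8). Ltf rose in the KO table and is not listed in WT, so a high KO colitis mean helped to bring it in. With that limit, the difference of Ltf between genotypes in colitis was −0.02. For Mmp8, whose protein shares its granule and which is listed in both genotypes, it was −2.60. The KO change of Ltf ranked 8th highest of all 5171 genes, and its WT change 32nd.

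Ly6g and Cd177 had another pattern. Ly6g encodes the surface antigen by which mouse neutrophils are gated in flow cytometry, and Cd177 a surface protein of neutrophils that can hold proteinase 3 at the membrane. Ly6g maps to chromosome 15 (75155240 to 75159126, plus strand), in a family of similar genes whose reads could be split in counting. It stood at 6.52 log2 RPM in WT control, 6.62 in KO control, 7.70 in WT colitis and 7.88 in KO colitis. Cd177 maps to chromosome 7 (24743983 to 24760311, minus strand), and stood at 8.46, 8.68, 9.88 and 10.27. In reads per library the control means were 931 and 959 for Ly6g and 3563 and 4015 for Cd177. These were the 2 members with such levels in untreated colon. Both genes rose in both tables, Ly6g 2.25-fold in WT and 2.40-fold in KO, and Cd177 2.67-fold and 3.01-fold. In colitis the KO means were 1.14-fold higher for Ly6g and 1.31-fold higher for Cd177. Of 6 other Ly6 family genes on the list, 5 were in the tables, rose in both genotypes and differed by −0.49 to 0.06 in colitis. With Ly6g and Cd177 left out, the median difference between genotypes in colitis was −1.35.

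The label of a neutrophil gene was therefore set against receptors that mark this cell. Of the 6 receptor genes on the list, Cxcr2, Csf3r, Il1r2, Fpr1 and Fpr2 were in the tables, and all 5 rose in both. Cxcr2, a chemokine receptor by which neutrophils enter tissue, was at 0.932 reads per library in WT control and 0.9 in KO control, the latter the value of a group with 0 reads in every library. Csf3r stood at 15.07 reads per library in WT control and 21.6 in KO control, and the others at 2.15 to 9.58. Summed, the 5 genes were at 1.69 log2 RPM in WT control, 1.94 in KO control, 5.93 in WT colitis and 4.94 in KO colitis. Per kilobase of merged exon, the control levels of the 5 receptors lay between −5.05 and −0.70 log2 RPM per kb, where Ly6g was at 6.61 in WT and 6.70 in KO and Cd177 at 6.95 and 7.18. The values in untreated colon thus go against the neutrophil label for Ly6g and Cd177. By smaller margins, Retnlg (1.50 in WT and 1.12 in KO) and Mmp9 (0.74 and 1.02) also lay above all 5 receptors in control. S100a9 did so in WT control (−0.36) and not in KO control (−1.29). The cells that gave these reads were not tested. Ceacam10, 16895 bases from Cd177, was likewise high in control at 7.41 in WT and 7.73 in KO, and was higher in KO colitis than in WT colitis by 0.70.

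Levels of the 9 genes were ordered per kilobase of merged exon, in log2 RPM per kb. In WT control Cd177 (6.95) and Ly6g (6.61) came first, followed by Retnlg (1.50), Mmp9 (0.74), S100a9 (−0.36) and S100a8 (−1.56), with Prtn3, Mmp8 and Ltf between −4.23 and −4.46. KO control began with Cd177 (7.18), Ly6g (6.70), Retnlg (1.12) and Mmp9 (1.02), and ended with Ltf (−4.41) and Mmp8 (−4.72). In WT colitis the order was Cd177 (8.37), Ly6g (7.78), S100a9 (7.30), S100a8 (6.06), Retnlg (4.94), Mmp9 (2.49), Ltf (0.48), Mmp8 (0.43) and Prtn3 (−1.13). In KO colitis Cd177 was at 8.77, Ly6g at 7.97, S100a9 at 4.54, Retnlg at 4.13, S100a8 at 3.41, Mmp9 at 1.56, Ltf at 0.46, Mmp8 at −2.18 and Prtn3 at −2.48. Retnlg and S100a8 thus changed places between the genotypes in colitis. Whether neighbours in these orders differ beyond the spread between mice was not tested.

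**Figure D2:**
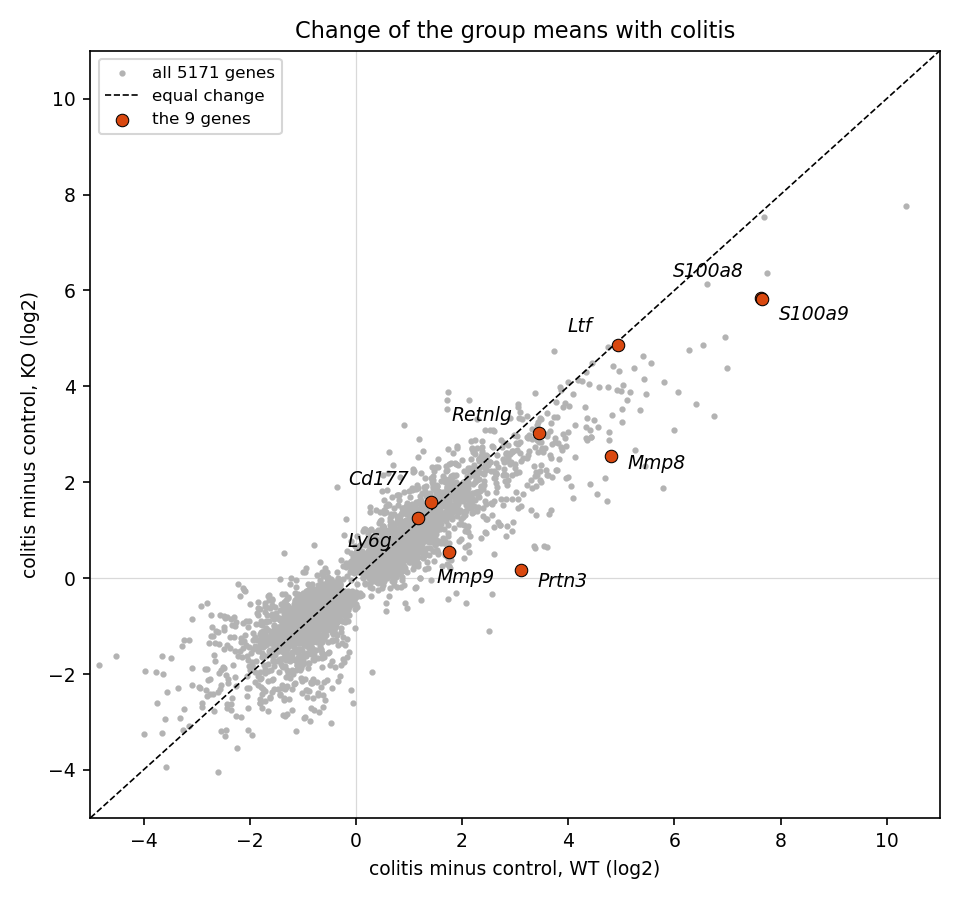
Change of the group means with colitis in KO (y axis, log2) against WT (x axis, log2) for all 5171 listed genes (grey) and the 9 genes (orange), with a dashed line of equal change. Ltf, Ly6g and Cd177 lie at the line, Retnlg lies just below it, and S100a8, S100a9, Mmp8, Mmp9 and Prtn3 lie further below, where control means at or under 3 reads make the changes of S100a8, Mmp8, Prtn3 and Ltf, and the KO change of S100a9, imprecise.

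Other genes of the same compartments were counted from fixed lists. Of the other specific granule genes, 5 of 8 were in the tables, and all 5 rose in both genotypes, with a median difference between genotypes in colitis of −0.90. Lcn2, which traps bacterial siderophores and is also made by epithelium, differed by −1.30 between genotypes in colitis, Chil3, a chitinase-like protein, by −2.53, and the protease inhibitor Slpi by −0.90. Cybb and Cyba, the membrane subunits of the phagocyte oxidase, differed by 0.26 and 0.03. Of the cytosol list 4 of 9 were in the tables, 4 rising in WT and 2 in KO, with a median difference of −0.80. Stfa2l1, a cystatin-like protease inhibitor, differed by −2.91 with a KO colitis mean of 1.42 reads per library, Asprv1, a retroviral-like protease, by −0.94, Padi4, which citrullinates histones, by −0.66, and S100a11 by −0.29. Stfa2l1 and Asprv1 are listed in WT colitis and not in KO colitis, so a high WT colitis mean could have brought them in. The median of −0.80 includes both. A difference of the size seen for S100a8 and Mmp8 was thus found for Chil3, listed in both genotypes, and not for Cybb and Cyba.

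Inhibitors and partners of the proteins were looked at next. Timp1, which inhibits Mmp8 and Mmp9, was at 1.36 log2 RPM in WT control, 1.32 in KO control, 5.24 in WT colitis and 3.99 in KO colitis, a difference of −1.26 in colitis. Of the 7 inhibitor genes, Timp4 and Serpinb1a, which inhibits neutrophil serine proteases, were also in the tables, at differences of 0.65 and 0.06. Itgam and Itgb2, the chains of the Mac-1 integrin, rose in both genotypes (2 of 3 partner genes in the tables) and differed by −0.39 and −0.06. Genes for cytokines and chemokines that call or raise neutrophils were in the tables for 8 of 9, with 5 in the WT and 6 in the KO table. All 8, among them Cxcl1, Cxcl2, Cxcl5, Csf3 and Il1b, were lower in KO colitis than in WT colitis. Of all 5171 listed genes, 2722 were lower. The differences of the 8 were −0.63 to −3.06, with a median of −1.51. Cxcl3 (−3.06) and Csf3 (−2.41) are listed in WT colitis and not in KO colitis. A high WT colitis mean could thus have brought them in. Cxcl2, Il1b and Ccl3 are listed in KO colitis and not in WT colitis. For 6 of the 8 both genotypes' control means were at or under 3 reads. Of the factors of granulocyte maturation, Cebpb, Cebpd, Cebpe and Spi1, which encodes PU.1, were in the tables (4 of 6), with differences of −0.09 to −0.33 (median −0.19).

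Markers of cell types were then set beside the members in colitis, where in bulk tissue fewer cells of a type and less RNA per cell cannot be told apart. The 5 neutrophil receptor genes were all lower in KO, as were 2722 of all 5171 listed genes. Their differences were −0.75 to −1.67 with a median of −1.11, beside −0.01 for all listed genes. Whether the authors list these receptors between genotypes is not given here. The monocyte and macrophage genes (8 of 11 in the tables) differed by −0.13 to 0.24 (median 0.01), with a summed level of 10.13 log2 RPM in WT and 10.11 in KO colitis. The genes of all leukocytes, Ptprc, Laptm5, Coro1a and Cd53, differed by −0.03 to 0.25 (median 0.10), and their summed level was 8.78 and 8.89. T cell genes (6 of 6) differed by −0.12 to 0.27 (median 0.11) and mast cell genes (4 of 5) by 0.10 to 0.25 (median 0.17). The eosinophil list had 1 of 4 genes in the tables (Ccr3, 0.31), and the B and plasma cell list 0 of 4. Of the colon epithelium genes, Aqp8 and Slc26a3 were higher in KO colitis than in WT colitis (0.59 for each) and Car1 differed by −0.81. Their list had median changes with colitis of −1.31 in WT and −0.89 in KO and a summed level of 11.75 log2 RPM in WT and 11.73 in KO colitis. The muscle genes differed by −0.05 and 0.02 between genotypes in colitis. The receptor list was thus lower in KO along with S100a8, S100a9 and Mmp8, and the medians of the leukocyte, macrophage and T cell lists lay near that of all listed genes. Their part in the differences of the 9 genes was not tested.

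**Figure D3:**
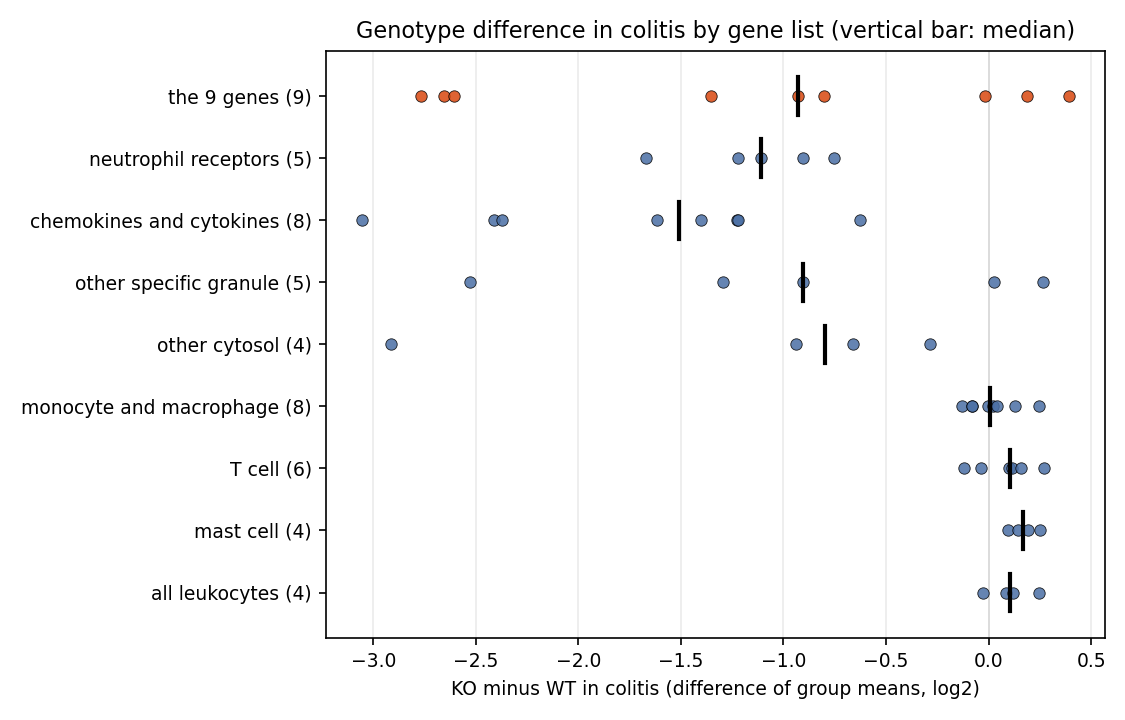
Difference of the group means between KO and WT in colitis (x axis, log2) for each gene (points) of the 9 genes and of 8 lists (rows, number of genes in the tables in brackets), with the median of each row as a vertical bar. The neutrophil receptors and the cytokine and chemokine genes lie below 0, and the macrophage, T cell, mast cell and leukocyte genes lie between −0.13 and 0.27.

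The genes with the pattern most like the 9 were found by distance to the gene-wise median of their centred means. They were Gm16548 (0.27), Osm (0.28), Gpr84 (0.29), Timp1 (0.30), Tnfrsf9 (0.30), Gzmc (0.32), Il1r2 (0.32) and A730032A03Rik (0.33), over 4 group means. Osm encodes oncostatin M, a cytokine of the interleukin 6 family, and changed by 3.61 in WT and 2.96 in KO. Gpr84, a receptor of myeloid cells for medium-chain fatty acids, changed by 3.61 and 3.02. Il1r2, the decoy receptor for interleukin 1 and 1 of the 5 neutrophil receptors, changed by 3.49 and 2.85. The 9 genes themselves lay at 0.324 (Retnlg) to 3.79 (S100a9) from this median, so that it describes Retnlg and few of the others. By the correlation over the 4 means in place of the distance, 0 of these 8 genes were among the nearest 8.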

How the data were processed

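RNA from whole colon was sequenced in 16 samples, grouped by their titles. The authors mapped reads to GRCm38 with HISAT2 2.1.0 and kept uniquely mapped reads. The authors removed reads over annotated ribosomal RNA, found in some samples, counted reads over merged exons in SeqMonk and tested raw counts with DESeq2. The 4 deposited tables list the genes that passed in 1 comparison each, with an adjusted p-value (not used here) and 4 log2 values. The deposited log2 values are the authors' means over a group's libraries of log2 RPM, not corrected for length. Genes in none of the tables were not analysed here, so all shares refer to genes that passed at least 1 comparison.

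In each group the low means (110 to 246 genes) all lay on the steps of whole reads, which gave library sizes and showed that a count of 0 was entered as 0.9 read. The counting intervals (95%, exact Poisson) and the floor of 3 reads per library cover the counting error of control reads only. Each interval divides the colitis mean by bounds on the total control reads averaged over libraries, with 0 kept as 0. The folds use means of log2 values with 0 as 0.9, so interval and fold rest on unlike control means. Where several sets of control reads were possible, the interval spans them all. Counts by sample in the study's supplement were not used here, so differences of the means are descriptions with no test. A log2 change of 1 was the threshold for counts. Tests that had been planned in case single libraries were given were not run. Rows of a gene were identified by its symbol, and 8 of the 9 genes had the coordinates of GENCODE vM21, Retnlg being the exception. Promoter windows are from RefSeq (GRCm38.p6), where 8 of the 9 genes matched. Named were the 9 genes, Smarcad1, listed genes with a role tied to a member, the 8 genes nearest to the members' median pattern, the 3 nearest to S100a8 and to S100a9, and, chosen after their values were seen, some genes within 100 kb of a member. The members, lists and tests were chosen with earlier results of these data known. One further gene list is not reported here. Alternatives covered the floor, centring, the threshold and the choice of members. Scripts used Python 3.11.15, numpy 2.4.6, pandas 2.3.3, scipy 1.17.1 and matplotlib 3.10.9, and were tested on simulated data.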

Additional observations from a re-analysis of the deposited data

How the results depend on the processing

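For the 9 genes as a group, there were 33 alternatives, and 8 of them (Ly6g and Cd177 left out, and Prtn3 left out) were added after seeing the data. In 20 the value moved by no more than 0.2 on the log2 scale or 1.5-fold in a count. With low means raised to 3 reads, the median KO change was 1.59 in place of 2.54. The mean over the genes in place of the median gave 3.99 in WT, 2.85 in KO and −1.17 between genotypes in colitis. With the genes above 3 reads in both controls (Mmp9, Retnlg, Ly6g and Cd177), these values were 1.59, 1.43 and −0.31. Without Ly6g and Cd177 they were 4.81, 3.02 and −1.35, and the control difference was −0.33 in place of 0.05. Without Prtn3 the changes were 4.13 in WT and 2.78 in KO. No direction of a median change or difference with colitis turned. For single genes, 12 of 72 alternatives moved the value, all by raising low control means to 3 reads, and the differences of S100a8 and Mmp8 between genotypes in control then became 0.05. The cause of these shifts beyond the raised means and the genes left out was not tested. No paired analysis was possible because the columns of the deposited tables are group means and carry no replicate numbers, and for the same reason no replicate was left out. Depth limits the control values of S100a8, Mmp8, Prtn3 and Ltf, which rest on at most 22 reads in 3 libraries, and the KO control value of S100a9, which rests on 7 to 11.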
